A study of Homo sapiens with 25 samples.

Results

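The comparison described here is ATAC-seq of HEC-1A cells after 24 h of THC against untreated HEC-1A cells. HEC-1A is a human epithelial line established from an adenocarcinoma of the endometrium and has the genotype WT in the labels, and THC is tetrahydrocannabinol, the main psychoactive cannabinoid of cannabis. The THC group had 3 libraries of cells given 20 µM for 24 h and the untreated group had 3 libraries of cells without THC, so 6 of the series' 25 samples enter the comparison. The samples were chosen by their labels and not by any measured value. A vehicle and a time in culture are not given for the untreated cells in the sources used here, so THC, vehicle and time cannot be told apart. Separate cultures are not stated for the 3 libraries of a group, which the labels call biological replicates. The spread behind each p-value may therefore be technical. All samples are of 1 cell line. RNA-seq of the same 2 conditions (3 libraries each), ATAC-seq after 72 h of THC (3 libraries) and CUT&RUN of the histone mark H3K4me3 (3 untreated and 3 THC libraries, no duration given) were set beside the 6 ATAC lists as separate readouts.

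ATAC-seq uses a transposase that inserts sequencing adapters where DNA is open, so that peaks mark promoters, enhancers and insulators that are not packed into nucleosomes. Promoters of housekeeping genes are open in most cell types, whereas regions far from gene starts differ more between cell states. H3K4me3 marks the nucleosomes beside active promoters. SWI/SNF remodellers, to which the ARID1A protein named in the series' title belongs, slide and evict nucleosomes and keep many distal elements open. Transcription can change at a promoter that was already open, so RNA and accessibility need not move together.

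The 250 bases before 6 gene starts are shown because the results return to these genes: CD68 was the gained start whose RNA changed, SAMD9 and RBM38 were lost starts with H3K4me3 kept, DDIT3 and ARID1A were listed by all 6 libraries but changed in rank, and PLAUR is the nearest tested gene of a gained distal region. Sequences are from RefSeq (GRCh38.p14), 5′ to 3′ on the gene's strand, at chr17:7579388-7579637 (+) for CD68, chr7:93117980-93118229 (-) for SAMD9, chr20:57391146-57391395 (+) for RBM38, chr12:57520515-57520764 (-) for DDIT3, chr1:26695765-26696014 (+) for ARID1A and chr19:43670170-43670419 (-) for PLAUR. Each ends at the base before the annotated start. Capitals mark matches, on either strand, to the motifs searched.
CD68: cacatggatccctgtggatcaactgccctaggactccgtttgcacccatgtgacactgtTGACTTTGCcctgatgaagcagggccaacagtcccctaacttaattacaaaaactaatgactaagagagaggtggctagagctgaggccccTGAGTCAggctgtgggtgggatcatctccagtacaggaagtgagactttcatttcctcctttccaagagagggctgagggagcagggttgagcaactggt
SAMD9: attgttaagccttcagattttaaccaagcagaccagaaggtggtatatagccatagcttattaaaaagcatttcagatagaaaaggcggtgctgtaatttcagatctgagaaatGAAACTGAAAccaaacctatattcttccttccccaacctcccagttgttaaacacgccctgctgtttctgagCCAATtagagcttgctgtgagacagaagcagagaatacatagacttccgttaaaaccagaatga
RBM38: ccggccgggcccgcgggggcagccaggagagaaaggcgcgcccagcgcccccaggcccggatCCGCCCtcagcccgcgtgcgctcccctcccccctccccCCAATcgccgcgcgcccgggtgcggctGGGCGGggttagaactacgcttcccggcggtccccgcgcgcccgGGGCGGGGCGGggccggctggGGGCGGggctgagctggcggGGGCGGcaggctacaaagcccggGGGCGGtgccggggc
DDIT3: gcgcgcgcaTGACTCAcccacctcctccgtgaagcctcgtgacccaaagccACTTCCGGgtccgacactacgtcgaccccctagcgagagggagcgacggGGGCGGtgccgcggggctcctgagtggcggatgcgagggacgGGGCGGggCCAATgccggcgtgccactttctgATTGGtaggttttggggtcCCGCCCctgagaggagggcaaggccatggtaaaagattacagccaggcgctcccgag
ARID1A: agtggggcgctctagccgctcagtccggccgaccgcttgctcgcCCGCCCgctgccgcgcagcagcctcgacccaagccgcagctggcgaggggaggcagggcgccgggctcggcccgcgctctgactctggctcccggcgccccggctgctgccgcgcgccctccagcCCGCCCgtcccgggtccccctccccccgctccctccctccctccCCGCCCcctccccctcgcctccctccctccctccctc
PLAUR: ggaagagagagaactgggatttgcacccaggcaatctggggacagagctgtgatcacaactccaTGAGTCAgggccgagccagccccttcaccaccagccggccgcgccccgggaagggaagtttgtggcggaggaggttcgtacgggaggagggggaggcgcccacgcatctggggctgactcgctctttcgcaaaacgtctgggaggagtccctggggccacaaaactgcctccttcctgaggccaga
The capitals are AP-1 (TGANTCA) in CD68, DDIT3 and PLAUR, the antioxidant element (TGACNNNGC) in CD68, the interferon element in SAMD9, CCAAT in SAMD9, RBM38 and DDIT3, the GC box (GGGCGG) in RBM38, DDIT3 and ARID1A, and ETS (CCGGAAGT) in DDIT3. The AP-1 match of CD68 begins 100 bases before its start, that of PLAUR 186 bases before and that of DDIT3 241 bases before. A match describes letters and shows no binding.

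List length varied widely among the libraries of both groups. The untreated libraries listed 150884, 65042 and 99912 peaks on chromosomes 1 to 22 and X, and the THC libraries 62064, 57356 and 78290. Untreated replicate 1 was the longest list and THC replicate 2 the shortest, and the groups overlapped (mean 105279 ± 43172 against 65903 ± 10982, SD, n = 3 libraries each; exact two-sided permutation test p = 0.2, the smallest p that 3 against 3 allows being 0.1). The peaks covered 34.5, 17.1 and 29.3 Mb in untreated and 15.3, 18.2 and 25.6 Mb in THC libraries (exact permutation p = 0.3). A peak list holds no read counts, so the depth of each library is unknown and a missing peak can be a region under the caller's threshold. The main results therefore use equal-length lists, the 57356 peaks of each library with the largest -log10 p.

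At equal length, peaks within 1 kb of an annotated gene start made up 25.0%, 24.4% and 24.1% of the untreated lists and 24.7%, 22.5% and 23.4% of the THC lists (exact permutation p = 0.3). Peaks under H3K4me3 regions that all 6 CUT&RUN libraries listed made up 43.9%, 43.3% and 43.6% in untreated and 43.6%, 39.99% and 42.7% in THC libraries (exact permutation p = 0.2). THC replicate 2 was the lowest in both measures. The groups overlapped in the start share and in the H3K4me3 share, and neither difference was called. With all peaks in place of equal lists both differences turned the other way, to 4.18 and 9.25 percentage points higher with THC (exact permutation p = 0.3 and p = 0.2). The plot of list length, start share and similarity gives each library.

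**Figure D1:**
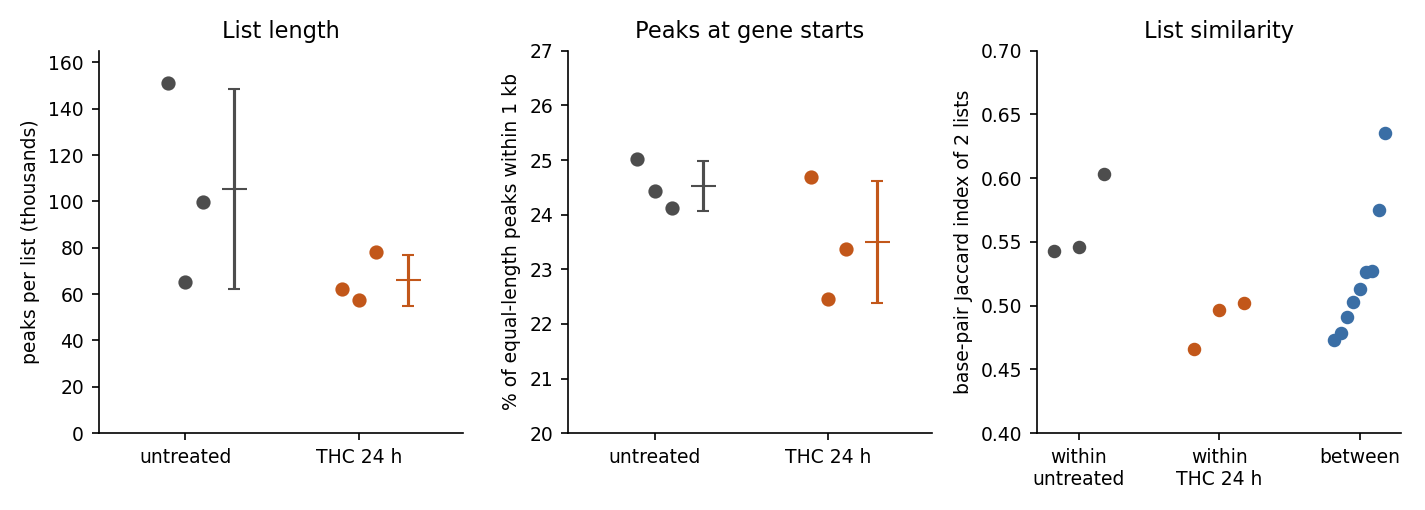
Peaks per list (left, in units of 1000), percentage of equal-length peaks within 1 kb of a gene start (middle, axis from 20 to 27) and base-pair Jaccard index of each pair of equal-length lists (right, axis from 0.4 to 0.7). Points are libraries or pairs, and bars beside them are mean and SD of 3 libraries. Pairs from different groups span 0.473 to 0.635, which covers the pairs within each group except the lowest pair of THC libraries at 0.466.

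Libraries of 1 group were no more alike than libraries of different groups. The mean Jaccard index (shared bases over bases in either list) was 0.564 for the 3 pairs of untreated libraries, 0.488 for the 3 pairs of THC libraries and 0.525 for the 9 pairs across groups. The within-group minus between-group difference was 0.00143 (exact permutation p = 0.4). The most alike pair was untreated replicate 3 and THC replicate 3, at 0.635. No 2 of the 6 lists were identical.

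Merging the 6 equal-length lists gave 107947 regions. Of these, 30632 (28.4%) were listed by all 6 libraries and 46349 (42.9%) by a single one. Regions gained with THC, listed by 3 of 3 THC and 0 of 3 untreated libraries, numbered 557 (0.516% of regions), and regions lost, with the groups exchanged, numbered 603 (0.559%). Which count was larger depended on the setting. Ranking by fold enrichment gave 595 gained and 635 lost, equal-length lists of 28678 peaks gave 377 and 268, and peaks of -log10 q of at least 5 gave 67 and 462. With all peaks the same rule gave 201 gained (0.0928%) and 1671 lost (0.771%) of 216668 regions, and 68303 regions were listed by untreated replicate 1 alone. Of the 557 gained regions 141 (25.3%, or 70.1% of the 201) met a gained region of the other form, and of the 603 lost regions 453 (75.1%, or 27.1% of the 1671) met a lost one. Leaving out any 1 of the 6 libraries raised both counts. Fewer lists then had to match, and without THC replicate 2 the equal length also rose from 57356 to 62064 peaks. The counts were 790, 928 and 1159 gained and 1343, 1694 and 1213 lost without untreated replicate 1, 2 or 3. Without THC replicate 1, 2 or 3 they were 1569, 1315 and 1261 gained and 1082, 946 and 1774 lost. The order of the counts thus also differed with the library left out.

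**Figure D2:**
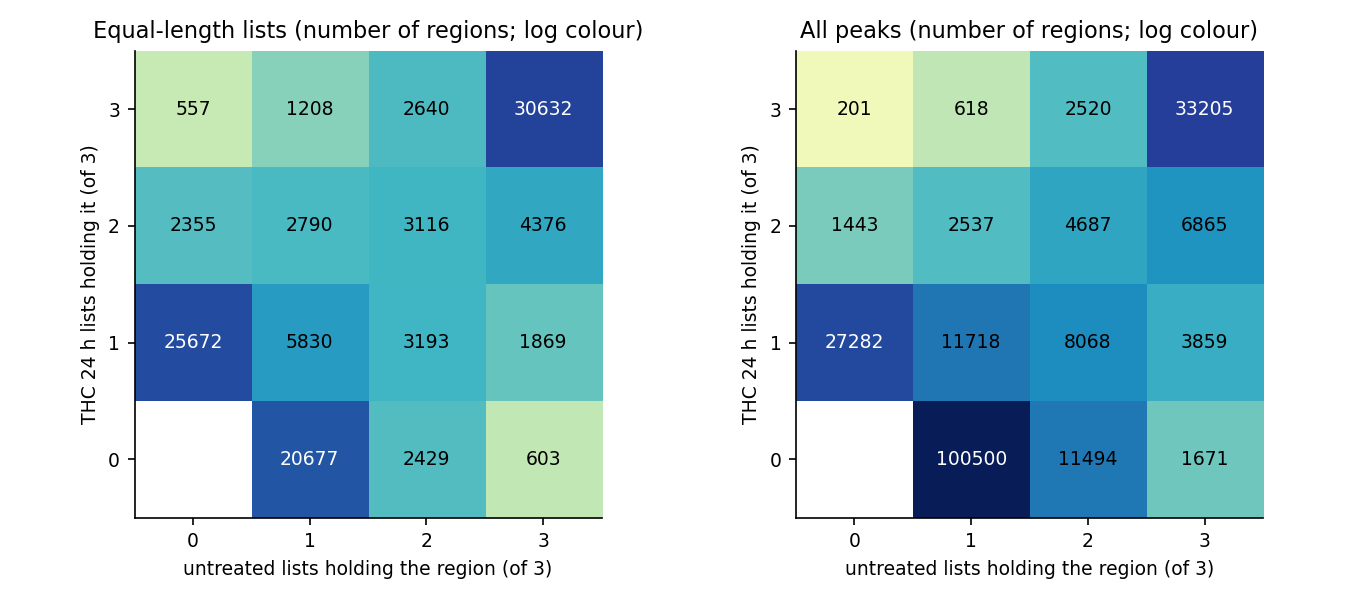
Number of merged regions by how many of the 3 untreated lists (x axis) and 3 THC 24 h lists (y axis) hold them, for equal-length lists and for all peaks, on a log colour scale. The gained corner (top left) holds 557 regions against 603 in the lost corner (bottom right) at equal length, and 201 against 1671 with all peaks.

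Gained and lost regions were weaker and lay farther from starts than shared ones, a description that carries no test. Their median rank was 40918 and 39609, where rank 1 is a library's strongest peak, against 16060 for regions of all 6 lists. Gained regions had a median width of 274 bp, lost ones 147 bp and regions of all 6 lists 522 bp. Of the gained regions 5.04% lay within 1 kb of a gene start, of the lost 8.73% and of those in all 6 lists 35.2%. Chromosome 8 was left out of this and later counts by gene start. Starts of other genes were missing too, so some regions at starts may not have been counted as such. Gene bodies away from starts held 57.1% of gained, 56.8% of lost and 39.9% of shared regions. A further 5983 regions were also listed by 3 of 6 libraries, but by 1 library of either group and 2 of the other. They had a median rank of 42292, a median width of 210 bp, 8.33% at starts and 54.1% in gene bodies. These values lie near those of gained and lost regions. By chromosome, the gained share of regions ran from 0.311% on chromosome 19 to 0.748% on chromosome 20, and the lost share from 0.348% on chromosome 17 to 0.845% on chromosome 6.

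Among the gained regions the 4 best-ranked ones lay in gene bodies or between genes. A region in FRMPD4 (chrX:12007967-12008178) held ranks 10486, 13081 and 21959 in the THC lists. One in CCDC186 (chr10:114151590-114151724) held ranks 16028, 18489 and 21964, and CCDC186 RNA was higher by 0.76 on the log2 scale (limma adjusted p = 4.15e-06). One in RAB3GAP1, which regulates RAB3 and RAB18 GTPases, stood at 9151, 21136 and 32559. The fourth lay far from any annotated start on chromosome 11 (chr11:51842085-51842217, ranks 21182, 16255 and 22302). Of the 4 only the RAB3GAP1 region was also gained with all peaks. The best-ranked lost regions were in FAM20C, which encodes a Golgi kinase of secreted proteins (chr7:205240-205361, ranks 6376, 11326 and 16137 in the untreated lists), PMF1, a kinetochore gene (chr1:156216580-156216729, ranks 10758, 8504 and 14937), MAN2A1, a Golgi mannosidase gene (ranks 10353, 17541 and 11394), and AXIN2, a feedback inhibitor of WNT signalling (ranks 14969, 18910 and 26206). All 4 were lost with all peaks too. FAM20C RNA fell by 0.89 (limma adjusted p = 2.88e-05).

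Few gene starts were listed by every library of 1 group and by none of the other. Of 27195 genes with an annotated start, 12181 (44.8%) met a peak in all 6 equal-length lists and 11687 met none. A further 3277 were listed by some libraries without being gained or lost. Gained starts numbered 17 (0.0625%) and lost starts 33 (0.121%). With all peaks the counts were 6 (0.0221%) and 142 (0.522%), and leaving out any 1 of the 6 libraries gave 22 to 59 gained and 60 to 117 lost starts. In RNA, 3433 of 13753 tested genes were higher at 24 h (25.0%) and 7111 lower (51.7%; limma, Benjamini-Hochberg adjusted p under 0.05). TPM sums to a constant, the median log2 change over tested genes was -0.23, and centring each library on its median gave 4954 higher and 5128 lower. RNA changes below are uncentred log2 fold changes, to be read against that median. At least 2-fold changes among called genes were 726 higher (5.28%) and 1465 lower (10.7%). Among 482 genes with a start and RNA higher by at least 2-fold, 1 start was gained, 0 were lost and 80.9% were in all 6 lists. Among 1065 genes lower by at least 2-fold, 0 were gained, 0 lost and 89.5% in all 6 lists, against 90.4% of the 10084 tested genes with a start.

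CD68, a lysosomal membrane glycoprotein that is widely used as a macrophage marker, was 1 of 2 gained starts, of 17, whose gene was tested in RNA, and the 1 with a called change. The other, CNTNAP1, a neuronal contactin-associated gene, was not called (-0.17, adjusted p = 0.201). CD68 RNA was 0.298, 0.258 and 0.19 TPM untreated and 127, 137 and 133 TPM with THC (log2 fold change 6.74, SE 0.10, limma adjusted p = 2.71e-11). In ATAC a 500 bp region over the start (chr17:7579154-7579653) stood at ranks 55911, 25555 and 57060 of 57356 in the THC lists and in none of the equal-length untreated lists. With all peaks, 3 of 3 untreated libraries listed a peak at this start, so the gain is one of rank and not of presence. The start was not gained under -log10 q of at least 5, under fold ranking, in lists of 28678 peaks or with a window of 5 kb. H3K4me3 was listed there in 3 of 3 untreated and 3 of 3 THC libraries, and the start was in 3 of 3 lists at 72 h. Of the other 8 immune marker genes with a start, 0 were listed by all 6 libraries, and 0 of 4 endothelial and 1 of 4 stromal marker starts were, against 3 of 3 epithelial ones. In RNA, CD68 was the 1 of 12 immune markers that was high enough to test, and 1 of 10 stromal, 0 of 8 endothelial and 8 of 8 epithelial markers were.

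Of the 33 lost starts 12 had a gene tested in RNA, of which 4 were higher and 4 lower, against 24.5% higher and 54.0% lower of the 10084 tested genes with a start. SAMD9, an interferon-inducible gene that restricts poxviruses, lost an 85 bp region 23 bp from its start (chr7:93118002-93118086). It held ranks 20415, 22491 and 43152 in the untreated lists, was in 0 of 3 THC lists also with all peaks, and was in 0 of 3 lists at 72 h. SAMD9 RNA went up, from 5.40, 5.96 and 5.26 to 10.7, 11.3 and 10.9 TPM (log2 fold change 0.87, SE 0.06, limma adjusted p = 6.66e-07), so RNA and peak moved in opposite directions. RBM38, an RNA-binding protein that stabilises CDKN1A mRNA, lost a 682 bp region over its start (chr20:57391286-57391967; ranks 37911, 53953 and 37912), again in 0 of 3 THC lists with all peaks and 0 of 3 at 72 h. Its RNA fell from 29.5, 32.6 and 29.3 to 21.1, 15.2 and 18.2 TPM (log2 fold change -0.72, SE 0.10, limma adjusted p = 6.15e-05). H3K4me3 was listed at both starts in all 6 CUT&RUN libraries. In lists of 28678 peaks and under -log10 q of at least 5 neither start was lost in full, and RBM38 was not lost under fold ranking or with a window of 5 kb.

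The other 6 called genes were SPEG, RTN4R, DGKD, CATSPER2, BTN3A3 and DIP2C. RTN4R, the receptor for the neurite growth inhibitor Nogo, stood at ranks 48091, 31540 and 40055 untreated and its RNA changed by -0.60 (limma adjusted p = 0.0158), a call lost on centring (adjusted p = 0.0962), without the filter on TPM (0.0581) and without untreated replicate 2 (0.0675) or THC replicate 2 (0.0532). BTN3A3, a butyrophilin, stood at 19349, 33683 and 48126 and its RNA changed by 0.33 (adjusted p = 0.00509). DGKD, a diacylglycerol kinase, stood at 52101, 45183 and 45979, 169 bp from an alternative start, and its RNA changed by 0.48 (adjusted p = 2.03e-05). DGKD and DIP2C each had a peak in 1 of 3 THC libraries with all peaks. DIP2C RNA changed by -0.20 (adjusted p = 0.0492), and by 0.017 after centring. The DIP2C call was also lost with the replicate block (adjusted p = 0.0666), without the filter on TPM (0.0934) and without any 1 of the 6 RNA libraries (0.0575 to 0.144). At SPEG (-0.74, adjusted p = 0.00362) and CATSPER2 (0.39, adjusted p = 0.00679) untreated replicate 2 listed another region near the start than replicates 1 and 3. The remaining gained or lost starts included CCNA1, PTCH1 and IL1R2, named after their values were seen, of which CCNA1 was not among the tested genes and the other 2 were not called in RNA.

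Regions listed by all 6 libraries can still change in rank, and ranks in lists of equal length are comparable. Of the 30632 such regions, 2179 (7.11%) rose, all 3 THC ranks being above all 3 untreated ranks, and 2027 (6.62%) fell. If the 6 libraries were exchangeable, a share of 0.1 of regions would rise or fall in this way by label alone. That share counts both directions together, and the observed shares were not tested against it. Being in either class therefore does not by itself show a response to THC. The median change of mean rank was 9581 places for rises and 7393 for falls. Rises of at least 10000 places numbered 1018 against 618 falls, and of at least 20000 places 168 against 41. Rises were more distal: 18.9% of the regions that rose lay at gene starts, against 38.03% of those that fell and 35.2% of all shared regions. At 10000 places or more the shares were 8.44% and 20.0%.

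Leaving out any 1 of the 6 libraries gave 3456 to 4535 rises and 3337 to 4292 falls. The largest rise was in a 411 bp region within 2 overlapping lncRNA genes on chromosome 1 (chr1:235917420-235917830). Its ranks were 49570, 45002 and 53241 untreated and 10500, 13876 and 11276 with THC, with no overlap between the groups. H3K4me3 was listed there in no untreated and 3 of 3 THC libraries, and all 3 lists at 72 h held it. The nearest tested gene, 33.7 kb away, was LYST, a regulator of lysosome size and trafficking, whose RNA rose from 2.21, 1.97 and 2.39 to 8.29, 8.75 and 8.13 TPM (log2 fold change 1.56, limma adjusted p = 1.02e-07). A region in PDE6A (chr5:149939022-149939296) moved from 35285, 52282 and 35261 to 6581, 6863 and 6766. A region in SDC4, a heparan sulfate proteoglycan of the cell surface, moved from 50095, 46663 and 46254 to 16493, 17354 and 11941, 3.94 kb from the start, and SDC4 RNA rose by 1.95 (adjusted p = 2.47e-10). The last of the 4, in SH3TC2-DT, rose from 51077, 34716 and 56067 to 11548, 11293 and 9214, while the RNA of that transcript fell by 1.00 (adjusted p = 3.13e-05).

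The largest falls lay between genes or in a gene body. A region 6.77 kb from BCL7B, which encodes a SWI/SNF-associated protein, went from ranks 16922, 17692 and 12612 to 47010, 49187 and 40476 (chr7:73564455-73564661). BCL7B RNA changed by -0.36 (limma adjusted p = 1.29e-04). A region in MGAT5, a Golgi glycosyltransferase gene, went from 28989, 36102 and 23403 to 56883, 54912 and 52378, with an RNA change of -0.47 (adjusted p = 9.98e-06). A region 47.6 kb from GALNT7, a mucin-type glycosyltransferase gene, went from 9139, 11613 and 17453 to 37514, 39135 and 36415, and GALNT7 RNA was not called (-0.23, adjusted p = 0.222).

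**Figure D3:**
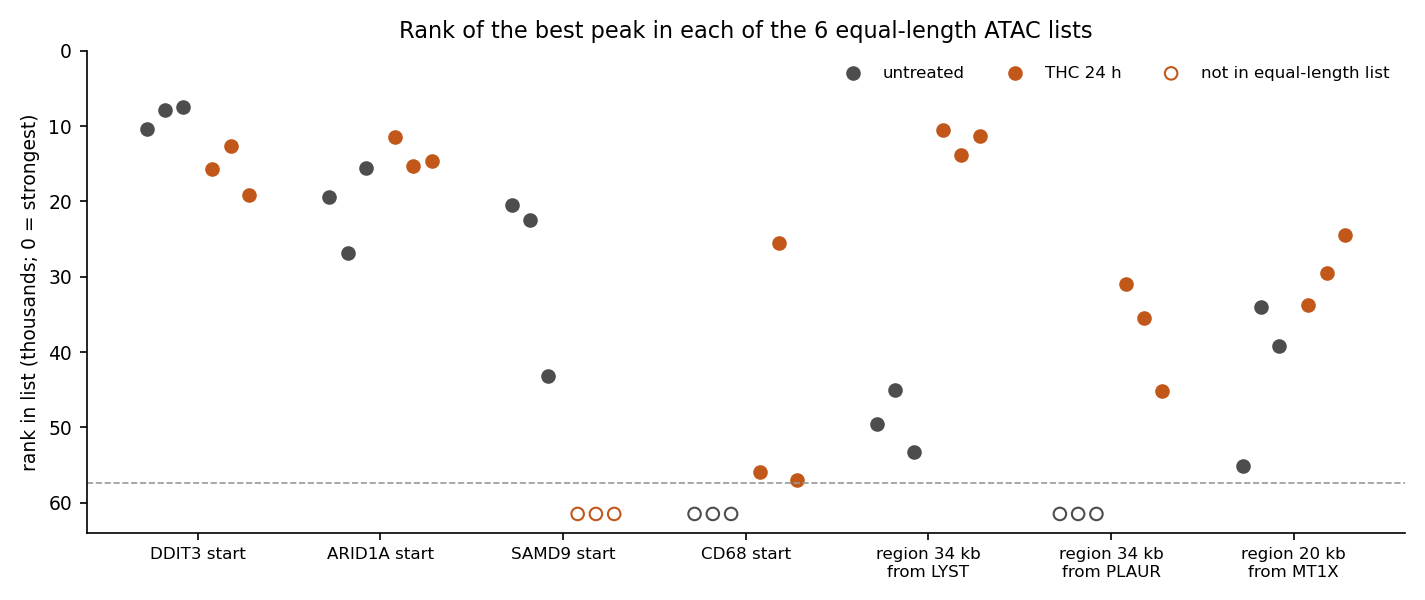
Rank of the best peak at 4 gene starts and in 3 distal regions in each of the 6 equal-length ATAC lists (y axis in units of 1000, inverted, strongest peaks at the top; dashed line, list end at 57356). Filled points are listed peaks and open points libraries without one; the region near LYST stands at 45002 to 53241 untreated and at 10500 to 13876 with THC.

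The genes of this paragraph come from a set list and not from a ranking by RNA change. DDIT3, the stress transcription factor CHOP, fell in rank from 10427, 7874 and 7476 to 15657, 12595 and 19199, with no overlap, while its RNA went from 26.8 ± 0.829 to 673 ± 33.96 TPM (log2 fold change 4.60). ARID1A rose in rank from 19377, 26806 and 15572 to 11454, 15342 and 14581, also without overlap, while its RNA went from 51.2 ± 1.86 to 18.6 ± 1.30 TPM (-1.41). Its groups were narrowly apart, at 15572 untreated against 15342 with THC, and a separation of ranks can arise by label alone. In both genes accessibility rank and RNA moved in opposite directions. Ranks overlapped between the groups at CDKN1A, the cell cycle inhibitor p21 (RNA 5.38; ranks 13480 to 15993 untreated and 11167 to 27823 with THC), at PLAUR, the urokinase receptor (RNA 5.22), at PPP1R15A, which restores translation after stress (RNA 4.35), and at SLC3A2, an amino acid transporter subunit (RNA 3.84). They also overlapped at the lipid genes SCD, the stearoyl-CoA desaturase (RNA -4.43), SREBF1 (-1.17) and SREBF2 (-0.52), at PCNA (-2.54), MKI67 (-1.76), ID4 (-2.98), TM4SF4 (-2.99) and KCNJ16 (-3.72). All these RNA changes were called by limma (adjusted p of 4.15e-06 or lower). The annotated starts of ATF3 (RNA 4.74) met no peak in any of the 6 libraries, with all peaks too. They also met 0 ATAC lists at 72 h and 0 H3K4me3 lists, untreated or with THC. Whether the starts used here are those that ATF3 uses in these cells was not tested, so its promoter cannot be called closed.

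Gene lists for the tissue and treatment held few changes at starts. Over all 12181 shared gene starts 457 (3.75%) rose in rank and 869 (7.13%) fell, while in RNA 25.0% of all tested genes were higher and 51.7% lower (median -0.23). With exchangeable libraries a share of 0.1 of these starts would rise or fall by label alone, both directions counted together. Gained and lost starts made up 0.0625% and 0.121% of all gene starts, so few or none are to be counted in a list. All 15 cholesterol synthesis genes with a start were in all 6 lists, with 1 up (MVD) and 1 down (FDPS) in rank, while RNA was lower for 20 of 20 tested members (median -1.22). Sterol uptake and control had 13 of 14 shared starts, with NPC2, a lysosomal cholesterol carrier, up and MYLIP, which degrades the LDL receptor, down, and 11 of 15 genes lower in RNA. Fatty acid synthesis had 18 of 19, with ACSL1 and FADS1 down in rank (RNA -3.02 and -1.15), and 15 of 20 genes lower. All 23 S-phase starts (1 up, ORC6; 2 down, POLD1 and CDT1) and all 20 mitosis starts were listed by all 6 libraries; in RNA 25 of 26 and 24 of 26 were lower. In the mitosis list 3 starts rose in rank, CCNA2, CCNB2 and the centromere histone gene CENPA (RNA -1.49, -0.94 and -1.48), and 1 fell, that of the checkpoint kinase gene BUB1 (RNA -0.72). For the integrated stress response, in which phosphorylated eIF2 favours translation of ATF4, 18 of 22 starts were in all 6 lists, with ATF4 up and DDIT3 and DDIT4 down, and 19 of 23 tested genes were higher in RNA (median 1.825). Unfolded protein response starts were all shared (21 of 21; HSP90B1 and ATF6 up), with 13 of 21 genes higher and 7 lower in RNA. For SWI/SNF 21 of 22 were shared, with ARID1A up and PHF10 down (RNA -1.41 and -1.45), and 22 of 26 genes lower in RNA. NF-κB and inflammation had 14 of 21 shared starts (BIRC3 and TNFAIP2 up, RELA down) and 14 of 16 tested genes higher in RNA. Interferon response genes had 10 of 18 shared and 0 that moved in rank, with 15 of 18 higher in RNA. AP-1 and immediate early genes had 14 of 17 shared starts, with JUN up, and 18 of 20 higher in RNA.

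In the p53 and G1 list 14 of 15 starts were shared and 3 fell in rank, CDKN1B, MDM2 and SESN1, with 9 of 20 genes higher and 9 lower in RNA. NRF2 targets had 14 of 15 shared, with AKR1C1, an aldo-keto reductase gene, down in rank and 1.496 higher in RNA, and 8 of 18 genes higher and 7 lower. YAP and TEAD targets had 11 of 14 shared, with NT5E down, and 12 of 19 genes lower and 4 higher in RNA. The autophagy and lysosome list had 17 of 23 shared besides the gained CD68, with TFEB, a regulator of lysosomal genes, up and ATG16L1 and ATG9A down, and 11 of 26 genes higher and 8 lower in RNA. Urokinase and protease genes had 3 of 9 shared, endometrial lineage factors 8 of 17 and mesenchymal genes 3 of 9, with 0 moved in rank, and in RNA 6 of 9, 4 of 14 and 4 of 9 were higher and 3, 8 and 4 lower. The 11 epithelial junction and keratin starts were all shared and 0 moved, while 15 of 22 genes were higher and 4 lower in RNA. CD68 was the only gained or lost start in any of the lists.

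Lists after 72 h of THC come from other libraries and were not used to choose the regions. They held 51017, 38495 and 80773 peaks. Of the gained regions 45.8%, 23.9% and 69.3% were listed in 72 h replicates 1, 2 and 3, and of the lost regions 17.1%, 6.47% and 45.3%. Gained regions were thus listed more often than lost ones in each 72 h library, by 28.7, 17.4 and 24.0 percentage points (mean 23.4 ± 5.67, SD, n = 3). The same difference without 24 h replicate 1, 2 or 3 was 15.4, 7.36 and 4.88 points. Gained and lost regions both stayed below the 87.2%, 71.2% and 98.8% of regions in all 6 lists. All regions were listed at 38.4%, 27.8% and 52.6%, and the 5983 regions held by 1 library of either group and 2 of the other at 31.7%, 17.6% and 60.3%. Any overlap counted as listed, and gained regions were wider than lost ones (median 274 against 147 bp). How far width enters the gap was not tested. Regions that rose in rank were listed at 90.2%, 76.4% and 99.2%, and those that fell at 83.0%, 68.3% and 99.4%. Rises of at least 10000 places were listed at 86.3%, 67.9% and 98.8%, against 66.0%, 42.7% and 98.7% of such falls, so the gap was seen in replicates 1 and 2 and was near 0 in the longest list. This comparison was chosen after first results were seen.

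H3K4me3 came from a different assay and other libraries, and was not used to choose the regions. Gained regions were listed at 22.6%, 23.9% and 24.8% in untreated CUT&RUN replicates 1 to 3 and 25.1%, 29.8% and 33.9% in THC replicates. Lost regions were listed at 24.0%, 26.2% and 27.4% untreated and 22.9%, 24.7% and 26.7% with THC. The gained minus lost difference was -1.43, -2.32 and -2.59 percentage points in untreated and 2.25, 5.09 and 7.23 in THC libraries, without overlap. It moved by 6.97 points (mean -2.11 ± 0.609 to 4.86 ± 2.50, SD, n = 3 each; exact two-sided permutation p = 0.1, the smallest that 3 against 3 allows). Without 24 h ATAC replicate 1, 2 or 3 it moved by 3.50, 3.71 or 4.32 points, and with peaks of -log10 q of at least 5 by 12.4 points. For rises minus falls in rank the values were -2.90, -2.70 and -2.83 untreated and -0.25, 1.57 and 1.69 with THC, a move of 3.81 points (exact permutation p = 0.1), and of 2.28 without 24 h replicate 1 and 2.51 without untreated replicate 2. Benjamini-Hochberg adjustment over these 2 comparisons leaves both at 0.1, and both were chosen after first results were seen.

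**Figure D4:**
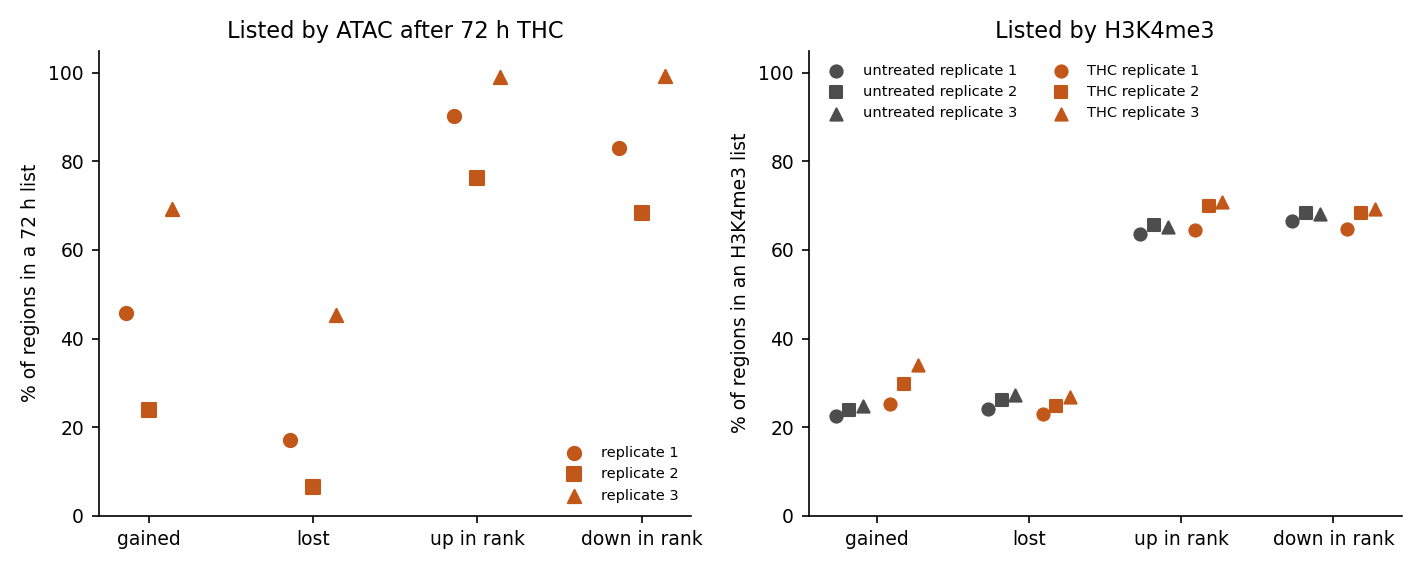
Percentage of regions of each ATAC class listed in each ATAC library after 72 h of THC (left) and in each H3K4me3 CUT&RUN library (right, grey untreated, orange THC); each point is 1 library. Gained regions lie above lost regions in all 3 libraries at 72 h (45.8% against 17.1% in replicate 1), and gained regions under H3K4me3 run from 22.6% to 24.8% untreated and from 25.1% to 33.9% with THC.

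Few single regions changed in both assays. H3K4me3 was listed by every THC library and no untreated one at 8 of 557 gained regions (1.44%) and 20 of 2179 regions up in rank (0.918%). The same was seen at 2 of 603 lost, 2 of 2027 down in rank and 0.181% of all regions. For regions in all 6 lists, to which both rank classes belong, it was 0.277%. The opposite pattern of H3K4me3 was seen at 0 gained, 2 up (0.0918%), 1 lost (0.166%) and 4 down (0.197%). Of all regions 0.105% had it, and of those in all 6 lists 0.121%. The nearest tested gene of the 8 gained regions was higher in RNA for 6 and lower for 2, and that of the 20 regions up in rank higher for 8, lower for 7 and not called for 5. Of all tested genes 25.0% were higher and 51.7% lower. Genes without a start could not be assigned, and 1 of the 8 lies within NUPR1 but was given SGF29, 14.6 kb away. With all peaks 2 of the 8 were still gained. One of the 8 is a 448 bp intergenic region on chromosome 19 (chr19:43704432-43704879) at ranks 30990, 35463 and 45177 in THC lists, which was not gained with all peaks. Its nearest annotated start is that of IRGC at 11.2 kb, and PLAUR, 34.3 kb away, is the nearest gene tested in RNA. PLAUR RNA went from 28.9, 27.1 and 28.1 to 1145, 1036 and 1050 TPM (log2 fold change 5.22, SE 0.06, limma adjusted p = 3.78e-12). Another, up in rank, lies 19.6 kb from the metallothionein gene MT1X (chr16:56702101-56702328; 55146, 34010 and 39178 to 33741, 29515 and 24452), whose RNA rose by 1.95 (adjusted p = 3.90e-07). One more, 95.7 kb from MAB21L4 within CROCC2, went from 33396, 34227 and 13007 to 7323, 3520 and 6296, and MAB21L4 RNA rose by 3.11 (adjusted p = 4.38e-10). A gained region of this kind, gained with all peaks too, lies 8.34 kb from PLK1, a mitotic kinase gene whose RNA fell by 0.48 (adjusted p = 2.13e-06). Among the 7 regions up in rank with a lower gene, 1 lies 7.55 kb from ZBTB38 (RNA -0.65, adjusted p = 5.72e-05). The genes of this paragraph were chosen after their values were seen.

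The RNA of genes near changed distal regions differed modestly between classes. Each region more than 1 kb from any start used here was given the nearest tested gene with a start, within 100 kb. Only 10084 of the tested genes had a start. Some of these regions may therefore lie at a missing start, and the gene given may not be the nearest. Of 286 gained regions 32.2% had a gene higher in RNA and 48.3% a gene lower, and of 291 lost regions 24.4% and 53.3%. For regions up in rank (1116) the shares were 34.2% higher and 46.4% lower, for those down (748) 28.3% and 53.3%, and for regions in all 6 lists (12284) 28.1% and 51.5%. The median log2 change was -0.18 for gained, -0.29 for lost, -0.14 for up, -0.23 for down and -0.22 for shared regions. With a rise of at least 20000 places (106 regions) 43.4% had a gene higher and 35.8% a gene lower, with a median of 0.10. Regions near 1 gene are not independent and the assignment by distance is a description, so no test was made.

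**Figure D5:**
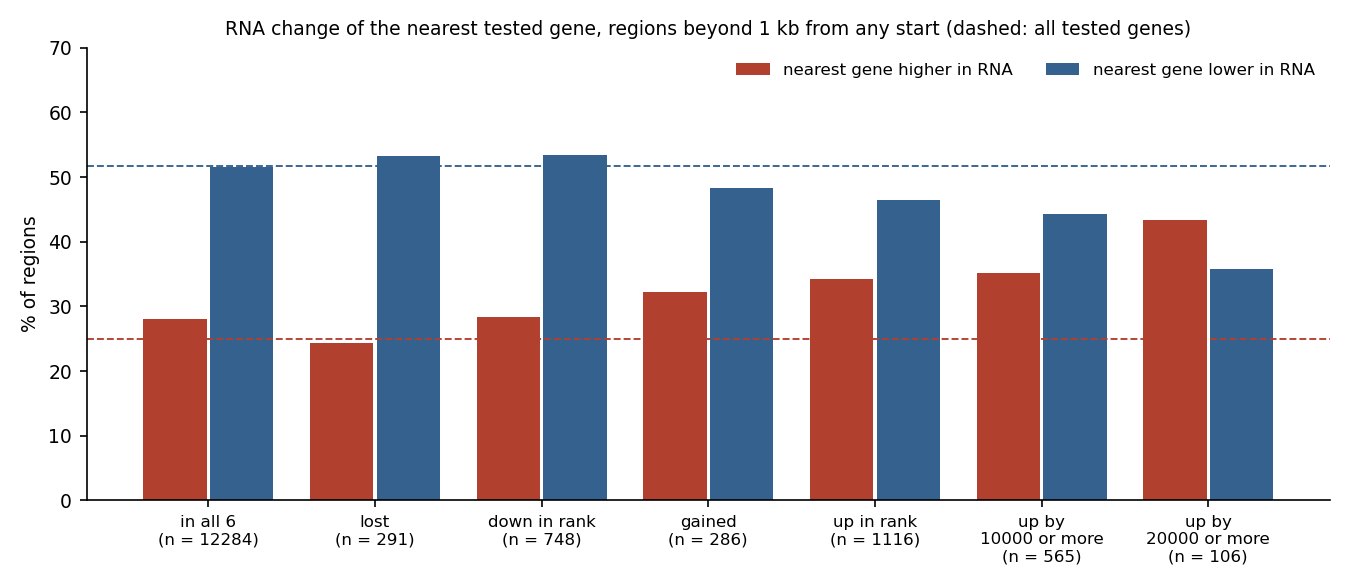
Percentage of distal regions whose nearest tested gene within 100 kb was higher (red) or lower (blue) in RNA after 24 h, by ATAC class, with dashed lines for all tested genes (25.0% higher, 51.7% lower). The share higher runs from 24.4% for lost regions to 43.4% for regions that rose by at least 20000 places.

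Some genes had several changed regions nearby. Of 134 genes with at least 2 gained or rising distal regions and 0 lost or falling ones, 62 (46.3%) were higher and 44 (32.8%) lower in RNA, with a median of 0.14. Of 67 genes with at least 2 lost or falling regions and 0 of the other kind, 20 (29.9%) were higher and 35 (52.2%) lower, with a median of -0.22. Of all 8605 genes given to any distal region, 25.0% were higher and 53.6% lower, with a median of -0.24. The values of the 67 genes lie near these. The 8605 genes were not matched for the number of regions per gene, and no test was made. CDCP1, a transmembrane SRC substrate, had 4 gained or rising regions in its own gene body, 12.2 to 40.3 kb from its start. The nearest (chr3:45133847-45134213) went from ranks 25941, 24256 and 13134 to 8514, 5055 and 3577, and the next (chr3:45125626-45126060) from 22527, 18235 and 13512 to 10482, 2860 and 7574. CDCP1 RNA went from 74.9, 87.3 and 77.4 to 308, 308 and 312 TPM (log2 fold change 1.94, SE 0.05, limma adjusted p = 1.03e-09).

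Others with several rising regions were HPCAL1, a neuronal calcium sensor (RNA 1.15, limma adjusted p = 1.98e-06), and MUC4, a membrane mucin (1.11, adjusted p = 2.13e-06), with 3 each. RNA did not follow at all of them: KAZN, which encodes a desmosome-associated protein, had 4 and fell by 1.58 (adjusted p = 2.22e-09), and CENPA had 3 and fell by 1.48 (adjusted p = 5.11e-09). AGAP1-IT1, ABR and CASTOR1 also had 4. AGAP1-IT1 RNA rose by 0.92 (adjusted p = 2.88e-04), ABR RNA changed by -0.41 (adjusted p = 8.45e-06) and CASTOR1 was not called (-0.27, adjusted p = 0.0812). SASH1, a scaffold protein of Toll-like receptor signalling, was the only gene with at least 3 falling regions and 0 rising ones. It had 4, of which the strongest (chr6:148578297-148578535) went from ranks 423, 1409 and 1135 to 2887, 5451 and 2814. SASH1 RNA fell from 12.4, 12.98 and 11.9 to 8.53, 8.20 and 8.26 TPM (log2 fold change -0.53, SE 0.06, adjusted p = 3.21e-05). These genes were named after their values were seen.

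Motif letters were counted, on both strands, in the 300 base windows around 34961 gene starts. Windows that met a region up in rank (506) held the AP-1 letters TGANTCA in 8.70%, windows that met a region down in rank (1000) in 5.00%, windows that met a region of all 6 lists in 4.59% and all windows in 7.68%. The CEBP-ATF letters TGATGNAA were in 3.75%, 1.10%, 1.26% and 3.62%. CCAAT was in 38.7%, 30.1%, 35.7% and 34.6%, the antioxidant letters in 16.2%, 16.1%, 15.4% and 13.4%, the ETS letters in 8.30%, 7.90%, 8.99% and 4.14%, and the interferon letters in 1.78%, 2.90%, 2.38% and 3.58%. The GC box was in 70.6%, 75.7%, 73.6% and 45.0%. The cyclic AMP element TGACGTCA was in 4.15%, 2.70%, 3.37% and 1.85%, the cell cycle element TTTGAA in 10.3%, 6.60%, 8.28% and 15.2%, the forkhead letters TGTTTAC in 0.988%, 2.30%, 2.15% and 3.42%, and a short CTCF form in 3.95%, 1.70%, 2.55% and 2.08%. The other 10 of 21 motifs differed by under 1 percentage point between windows up and down in rank: TEAD (GGAATG), HNF1, the sterol element (TCACNCCAC), NF-κB, E2F (TTTCCCGC), NRF1, the E-box (CACGTG), the GATA factor letters AGATAAG, GRHL (AACCGGTT) and CEBP (TTGCGCAA). Windows up in rank had a median GC content of 64.7%, those down 67.3% and those met by no listed region 49.3%. Only 15 windows met a gained and 28 a lost region, and of the 15 gained windows 5 held the AP-1 letters, the window of CD68 among them, 4 the CTCF form and 4 the antioxidant letters. Of the 28 lost windows 1, 0 and 3 did. Several windows can belong to 1 gene and overlap, so they are not independent. These counts describe letters in windows at gene starts, which held 5.04% of gained regions, and motifs in distal regions were not analysed here.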

How the data were processed

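ATAC peaks were taken from 9 lists (3 untreated, 3 after 24 h and 3 after 72 h of 20 µM THC), H3K4me3 peaks from 6 lists, and RNA from a table of 9 libraries. The groups come from the sample labels. One ATAC list after 24 h carries another number in its name than the library name in its label, and replicate numbers here are those of the labels. The genome build is GRCh38, per the submitters' processing notes, which name MACS2 2.2.7.1, MACS3, Bowtie2, Salmon, Picard, FastQC, Trim Galore and SAMtools without roles. The sources used here do not give read shifting, duplicate removal or the peak caller's settings.

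Each deposited peak list gives the authors' fold enrichment (a ratio), -log10 p and -log10 q per library. The deposited score column was not used. The RNA table was deposited in TPM by the authors, over 60179 identifiers, of which 59918 matched a symbol. TPM and peak lists keep no read depth, so no interval from counts is given.

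Peaks on chromosomes 1 to 22 and X were ranked by -log10 p, the top 57356 of each list (the shortest list's length) were merged over the 6 libraries, and any overlap counted as listed (Python 3.11.15, pandas 2.3.3, numpy 2.4.6, matplotlib 3.10.9). Gene starts (within 1 kb) and sequences are from RefSeq GRCh38.p14. The set of starts used here is incomplete. It holds none on chromosome 8 and lacks those of many other genes, FASN and BICC1 among them. Of the 13753 genes tested in RNA, 10084 had a start. Shares at starts may therefore be too low. Nearest starts and nearest genes are named among genes with a start, and a nearer one can be missing. The RNA test was limma's (version 3.58.1, R 4.3.3, trended eBayes) on the log2(TPM + 1) scale, for 13753 genes of mean TPM of at least 1 over 9 libraries (untreated, 24 h and 72 h sharing 1 estimate of spread). Fold changes on that scale understate low genes. Group values were compared with exact two-sided permutation tests over libraries. Scripts were tested on simulated data. Alternatives were other list lengths, ranking by fold enrichment, a stricter q, 50% coverage, other start windows, centred RNA and each library left out. Regions by listing or rank have no test of their own, since 3 against 3 cannot go below 0.1.

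Named genes were up to 8 gained and 8 lost starts called in RNA by size of RNA change, the 4 best-ranked gained and lost regions, the 4 largest rises and falls in rank, gained or lost members of 23 gene lists (458 entries), and ARID1A, SREBF1, SREBF2, FASN, SCD, DDIT3, ATF3, CDKN1A, PLAUR, CD68, PPP1R15A, SLC3A2, MKI67, PCNA, ID4, TM4SF4, BICC1 and KCNJ16. The samples, lists, motifs and rules were chosen with earlier results of these data known.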

Additional observations from a re-analysis of the deposited data

How the results depend on the processing

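With all peaks in place of equal-length lists there were 201 gained and 1671 lost regions, 6 gained and 142 lost gene starts, start and H3K4me3 shares higher with THC by 4.18 and 9.25 percentage points, and a gained minus lost difference at 72 h of 12.9 points. With -log10 q of at least 5 the values were 67 gained and 462 lost regions, 2 gained and 72 lost gene starts, and shares higher by 1.68 and 3.59 points. Lists of 28678 peaks gave 377 gained and 268 lost regions, 1041 rises and 1216 falls in rank and 30.3 points at 72 h. Ranking by fold enrichment gave an H3K4me3 share 0.372 points higher with THC. Requiring peaks to cover 50% of a region gave 17.4 points at 72 h. Gene starts within 100 bp gave 8 gained and within 5 kb 40 gained. The cause of these moves was not tested beyond the change in list length or window itself.

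Leaving out each library in turn gave 790 to 1569 gained and 946 to 1774 lost regions, 22 to 59 gained and 60 to 117 lost gene starts, 3456 to 4535 rises and 3337 to 4292 falls in rank, and 4.88 to 32.8 points at 72 h, where fewer libraries then had to match. The median peak width difference ran from -7.5 to 29.0 bp (7.67 with all 6 libraries), turning without untreated replicate 2 or 24 h replicate 3. The H3K4me3 moves of gained minus lost and of up minus down regions ran from 3.50 to 8.27 and from 2.28 to 4.44 points. Peaks per list ran from -59494.7 to -16573.7 and megabases from -12.2 to -3.53. RNA calls ran from 3206 to 3380 higher and from 6686 to 6931 lower. DIP2C RNA turned to 0.017 on centring.

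Replicate numbers were not used to pair the samples in the main tests. Same-numbered deviations correlated at -0.12, -0.0052 and -0.064 in RNA and at 0.053, -0.0061 and 0.24 in ATAC. The highest value, of ATAC replicate 3, belongs to the most alike pair of lists (Jaccard index 0.635), and 3 correlations per assay cannot settle pairing. With the replicate block RNA gave 3447 genes higher and 7130 lower, and an exact sign-flip test of peaks per list gave p = 0.25, the smallest that 3 pairs allow.

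The alternatives for H3K4me3 and 72 h listing were added after seeing the data. Depth is unknown, so regions absent from a list may lie under its threshold.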
